A study of Rattus norvegicus with 19 samples.

Results

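The 8 secreted Wnt antagonists Sfrp1, Sfrp2, Sfrp4, Sfrp5, Frzb, Dkk2, Dkk3 and Wif1 were followed by their read counts in rat heart. They were listed by symbol, and the list was chosen on measured values, since Sfrp2 was among the genes that fell most between EMPA + PFD and untreated hearts. All 8 symbols were found among the 17455 in the count files, and all 8 passed the filter on low counts, with 12388 genes tested in all. Wnt proteins are secreted lipid-modified ligands that bind Frizzled receptors and Lrp5 or Lrp6, which stabilises β-catenin in the canonical branch of the pathway. Secreted antagonists act outside the cell: Frizzled-related proteins (Sfrp1, Sfrp2, Sfrp4, Sfrp5 and Frzb) and Wif1 bind Wnt ligands, whereas Dkk2 binds the Lrp co-receptors. In the heart the pathway is active in development and is known to be taken up again in injured and fibrotic tissue.

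Sprague-Dawley rats aged 24 weeks were given L-NAME, an inhibitor of nitric oxide synthases, at 0.5 g/L in the drinking water and a high-fat diet with 60% of its energy from fat for 5 weeks, as a model of heart failure with preserved ejection fraction (HFpEF). Hearts were sequenced as 19 libraries, 1 per biological replicate. At week 5 there were 3 libraries of rats without L-NAME (control 5w) and 3 of the model (HFpEF). The paper states that the controls of both weeks ate normal chow. At week 9 there were 3 libraries of rats without L-NAME (control 9w), and the model rats had been gavaged for 4 weeks with phosphate-buffered saline (untreated, n = 3), the SGLT2 inhibitor empagliflozin at 0.35 g/kg per day (EMPA, n = 2), the antifibrotic drug pirfenidone at 0.3 g/kg per day (PFD, n = 2), or both drugs at those doses (EMPA + PFD, n = 3). L-NAME and the diet were given together, so their effects cannot be told apart. Total counts ran from 7430539 to 13017754 per library, with a median of 9951011. Levels are given in CPM, the count of a gene scaled to its library's total after TMM normalisation. Every adjusted p is from edgeR's quasi-likelihood test over all tested genes unless DESeq2 is named. The antagonists whose fold changes are given in a comparison were chosen after their values and their sign changes under other settings were seen, partly to keep such changes few. Over the alternatives the sign changed in 4.96% of the values for the 28 pairs of antagonist and comparison whose fold change is given in the text and in 10.3% for the 52 whose fold change is not, some of which are drawn in the plot of tests.

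Several libraries stood apart. All 19 were labelled male, while the labels' protocol describes groups of rats of both sexes. The Y-linked gene Eif2s3y had 0 counts in HFpEF replicates 1 and 3, in all 3 untreated libraries and in both PFD libraries, which goes against that label and allows at most 0.329 CPM in any of them (3 counts; counting error only). The other 12 libraries held 613 to 1321 counts. Every comparison of untreated with control 9w, EMPA or EMPA + PFD, and that of PFD with control 9w, therefore sets libraries without Eif2s3y counts against libraries with them, and in these the group and the Y-linked signal cannot be told apart.

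The labelled tissue was borne out by its markers: 9 of 10 listed cardiomyocyte genes were in the files, none was at 0 in any library, and their summed level ran from 11500 CPM in HFpEF replicate 1 to 104000 CPM in EMPA + PFD replicate 2, with Myh6 the most abundant. Here and below the most abundant gene of a list is the one with the highest mean CPM over the 19 libraries, which need not lead in each library. The paper's methods name the left ventricle. All 10 listed atrial genes were in the files, with Nppa the most abundant. Their sum was 25700 CPM in control 9w replicate 3 and 16100 CPM in untreated replicate 2, against 819 to 8260 CPM in the other 17 libraries. The atrial light chain Myl4 stood at 1380 CPM and 1600 CPM in those 2 libraries, at 305 CPM in control 9w replicate 1 and at no more than 33.8 CPM elsewhere. Of 13 listed valve, tendon and cartilage genes 11 were in the files, and their sum was 1880 CPM in HFpEF replicate 1 and 1230 CPM in EMPA replicate 2, against 40.6 to 149 CPM in the other 17. The cartilage collagen Col2a1, the most abundant of them, reached 1150 CPM and 737 CPM in these libraries and at most 1.79 CPM in the others. It was at 0 in control 5w replicate 3, control 9w replicate 2, untreated replicate 1, PFD replicate 2 and EMPA + PFD replicate 2.

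Fibroblast markers also varied within groups. All 12 listed fibroblast genes were in the files and none was at 0, with the collagen gene Col3a1 the most abundant. Their summed level in control 5w was 9260, 46700 and 38300 CPM in replicates 1 to 3, and in HFpEF it was 23100, 19700 and 19700 CPM. It was 10100, 7330 and 10100 CPM in control 9w and 9780, 17800 and 8660 CPM in untreated. EMPA stood at 7920 and 11500 CPM, PFD at 8650 and 9890 CPM, and EMPA + PFD at 11700, 4610 and 8540 CPM. Control 5w replicate 1 thus lay far below the other 2 libraries of its group, and untreated replicate 2 above the other 2 of its own. In bulk tissue, fewer cells of a type and less RNA per cell cannot be told apart.

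Sfrp2 is a matrix-associated Frizzled-related protein made by fibroblasts. Its counts in control 5w were 52, 979 and 688, or 4.90, 76.0 and 54.8 CPM, with a mean of 45.2 ± 36.5 CPM (SD, n = 3). In HFpEF they were 4115, 1202 and 1457, or 295, 110 and 130 CPM, with a mean of 179 ± 102 CPM (SD, n = 3). All 3 HFpEF libraries lay above all 3 of control 5w. In control 9w the counts were 142, 53 and 297 (16.0, 6.52 and 29.6 CPM) and in untreated hearts 386, 3726 and 205 (40.7, 303 and 21.6 CPM). Untreated replicate 2 had the highest Sfrp2 level in CPM of all 19 libraries, and untreated replicate 3 lay within the range of control 9w. Untreated replicate 2 was high in atrial markers, and so was control 9w replicate 3, where Sfrp2 stood at 29.6 CPM. Over the 19 libraries the Pearson r of log2 CPM of Sfrp2 with atrial markers was 0.34, and their part was not tested. In EMPA the counts were 41 and 196 (5.46 and 23.8 CPM), in PFD 118 and 166 (12.9 and 17.1 CPM), and in EMPA + PFD 62, 58 and 66 (7.33, 6.93 and 6.89 CPM). The 3 EMPA + PFD libraries were the most alike of any group, at 7.05 ± 0.242 CPM (SD, n = 3), and were below every untreated library.

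The order of mean Sfrp2 levels was HFpEF, untreated (122 CPM), control 5w, control 9w (17.4 CPM), PFD (15.0 CPM), EMPA (14.6 CPM) and EMPA + PFD. The place of untreated rests on replicate 2 (303 CPM). Its replicates 1 and 3, at 40.7 and 21.6 CPM, lay below the control 5w mean of 45.2 CPM. The libraries of each group overlapped with those of the next group in this order, so that no 2 neighbours differed beyond their spread.

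**Figure D1:**
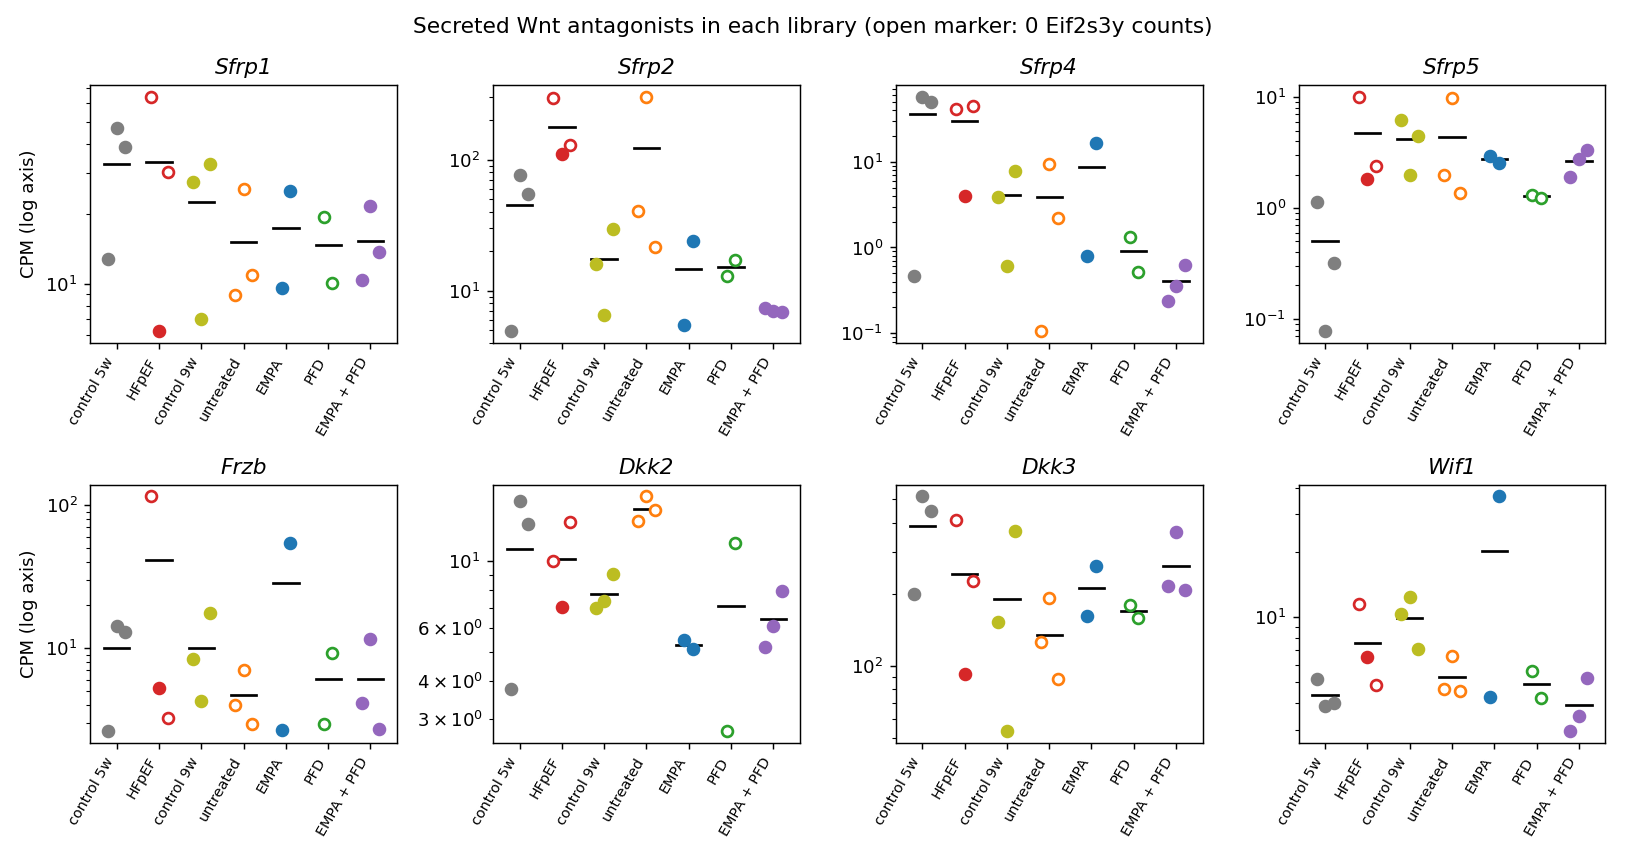
Level of each of the 8 antagonists in every library, in CPM on a log axis that differs between panels, by group (n = 3, or 2 for EMPA and PFD). Points are libraries, bars are group means, and open points have 0 Eif2s3y counts. Sfrp2 was highest in untreated replicate 2 (303 CPM) and HFpEF replicate 1 (295 CPM), and Sfrp5 was lowest in control 5w (0.0776 to 1.13 CPM).

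Sfrp5, a Frizzled-related protein also secreted by adipose tissue, was called higher in HFpEF than in control 5w, a call that several alternatives ended (adjusted p up to 0.176). A gene was called when its adjusted p was under 0.05 and its fold change at least 2. The counts of Sfrp5 in control 5w were 12, 1 and 4, or 1.13, 0.0776 and 0.318 CPM, so the reference level rests on few reads. In HFpEF they were 141, 20 and 27, or 10.1, 1.83 and 2.41 CPM, all above control 5w. Control 9w had 55, 16 and 45 counts (6.20, 1.97 and 4.49 CPM), again all above control 5w. Untreated hearts had 19, 121 and 13 counts (2.00, 9.82 and 1.37 CPM), where replicate 2 was high as it was for Sfrp2. The drug groups were even within themselves, with 22 and 21 counts in EMPA, 12 and 12 in PFD and 16, 23 and 32 in EMPA + PFD, or 1.23 to 3.34 CPM.

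Marker lists of other cell types moved with the Sfrp5 level over the 19 libraries, given as Pearson r of log2 CPM without a test. Those given here were picked after all were seen and are not all that did. A list that is not given had a larger r in size than these. Its sums in control 5w lay below those of HFpEF and control 9w. For skeletal muscle markers the r was −0.67 (rho = −0.66). All 7 were in the files with Acta1, which heart muscle also expresses, the most abundant, and Myog was at 0 in every library but HFpEF replicate 3, control 9w replicate 3 and EMPA + PFD replicate 1, and Myh1, Myh4 or both in 7 libraries. Their sum was 6730, 4530 and 4210 CPM in control 5w, 1360, 894 and 2380 CPM in HFpEF, 1240, 1330 and 1450 CPM in control 9w and 2110, 583 and 2180 CPM in untreated hearts. It was 1520 and 2510 CPM in EMPA, 4290 and 2770 CPM in PFD and 4400, 2740 and 3920 CPM in EMPA + PFD. All 3 sums of control 5w thus lay above those of HFpEF and control 9w. For epicardium and mesothelium markers, 7 of 10 in the files with Wt1 the most abundant, the r was 0.54 but the rho 0.28. Their sum was 56.1, 29.9 and 40.3 CPM in control 5w, 79.4, 121 and 134 CPM in HFpEF, 142, 196 and 110 CPM in control 9w and 55.4 to 132 CPM in the other groups, and Bnc1 was at 0 in all libraries but HFpEF replicate 1 and PFD replicate 2. Here the sums of control 5w lay below those of HFpEF and control 9w. For adipocyte markers, 5 of 6 in the files with Adipoq the most abundant, the r was 0.55 and the rho 0.53. Their sum was 0.66, 0.0776 and 0.159 CPM in control 5w, 4.31, 0.367 and 0.982 CPM in HFpEF, 0.226, 0.615 and 4.39 CPM in control 9w and 0.237 to 5.76 CPM in the other groups. Adipoq was at 0 in 7 libraries, among them control 5w replicate 3, HFpEF replicate 2 and control 9w replicates 1 and 2. What part these or other cell types had in the Sfrp5 level was not tested.

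The first comparison, HFpEF with control 5w, asks what the model changed in the heart. Of the 8 antagonists 1 was called, Sfrp5, with a log2 fold change of 3.27 (SE 0.91, edgeR adjusted p = 0.0229), against 8.69% of all tested genes. Sfrp2 was 1.98 higher on the log2 scale (SE 0.94) but did not pass the test (adjusted p = 0.146), and its log2 fold change ran from 1.35 to 2.58 over the alternatives, with adjusted p from 0.0629 to 0.412. The call on Sfrp5 was lost without HFpEF replicate 1 (log2 fold change 2.10, adjusted p = 0.122), without control 5w replicate 2 (2.75, 0.0730) or replicate 3 (3.03, 0.0775), and without the 2 HFpEF libraries that had no Eif2s3y counts (1.95, 0.176). It was also lost when the 2 groups were fitted alone (3.26, 0.1), and its adjusted p ran from 0.00189 to 0.176 over all alternatives. The libraries did not overlap for Sfrp2 and Sfrp5, 2 of 8 members, against 37.7% of all tested genes. The median log2 fold change of the members was 0.42, and that of all genes 0.02.

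Frzb, a Frizzled-related protein known from cartilage, had 1603, 57 and 36 counts in HFpEF (115, 5.23 and 3.22 CPM) against 28, 184 and 162 in control 5w (2.64, 14.3 and 12.9 CPM). Only HFpEF replicate 1, the library with 1880 CPM of valve, tendon and cartilage markers, was high. The log2 fold change was 2.05 (SE 1.19, adjusted p = 0.229) with that library and −1.24 without it (adjusted p = 0.445), and the adjusted p ran from 0.127 to 0.726 over the alternatives. The part of these markers in the Frzb level was not tested.

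The second comparison sets control 9w against control 5w, rats without L-NAME at 2 times. Again 1 of 8 antagonists was called, Sfrp5, 3.08 higher on the log2 scale at week 9 (SE 0.92, adjusted p = 0.0188), against 14.7% of all tested genes. The call was lost without control 5w replicate 2 (2.56, adjusted p = 0.0726), control 5w replicate 3 (2.84, 0.0693) or control 9w replicate 1 (2.70, 0.0626), and over all alternatives the adjusted p ran from 0.00204 to 0.0726. Sfrp5 was thus lower in control 5w than in both groups set against it, and these 2 comparisons share the control 5w libraries. The libraries did not overlap for 2 of 8 members, Sfrp5 and Wif1, against 49.4% of all tested genes. The members' median was −0.52 and that of all genes −0.04.

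Sfrp4, a Frizzled-related protein expressed by activated fibroblasts, had 5, 740 and 623 counts in control 5w (0.471, 57.4 and 49.6 CPM) and 34, 5 and 79 in control 9w (3.84, 0.615 and 7.88 CPM). Its log2 fold change of −3.10 (SE 1.36) did not pass the test (adjusted p = 0.0901). In the current rat annotation Sfrp4 overlaps Nme8, which had at most 1.22 CPM, and Wif1 overlaps a long noncoding RNA gene, and reads of overlapping genes may not be told apart. Without control 5w replicate 1, the library low in fibroblast markers, it passed at −3.66 (adjusted p = 0.0277), and over all alternatives its adjusted p ran from 0.0277 to 0.236. Wif1, which binds Wnt ligands through its WIF domain, had 55, 50 and 50 counts in control 5w (5.18, 3.88 and 3.98 CPM) and 91, 101 and 71 in control 9w (10.3, 12.4 and 7.08 CPM). Its log2 fold change was 1.19 (SE 0.54, adjusted p = 0.101). It passed when the 2 groups were fitted alone (1.21, adjusted p = 0.0181) and without HFpEF replicate 1 and EMPA replicate 2 (1.19, 0.00676), and its adjusted p ran from 0.00297 to 0.251 over the alternatives. Dkk3, a divergent Dickkopf protein whose binding to the Lrp co-receptors is not settled, was −1.02 (SE 0.60, adjusted p = 0.204). It passed at −1.90 (adjusted p = 0.0325) without control 9w replicate 3, the library highest in atrial markers, and was −0.57 without control 9w replicate 2, and its adjusted p ran from 0.0181 to 0.498. Sfrp2 was −1.37 (SE 0.96, adjusted p = 0.279) and −0.78 without control 5w replicate 2, with adjusted p from 0.0701 to 0.611 over the alternatives.

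In untreated hearts against control 9w, 0 of the 7 antagonists other than Sfrp2 were called by edgeR or by DESeq2, and 0 had an unadjusted p under 0.05 in either. Of all tested genes 0.912% were called by edgeR and 2.41% by DESeq2, and 18.2% (edgeR) and 19.6% (DESeq2) had an unadjusted p under 0.05. Sfrp2 is described here with no test, because the untreated libraries took part in the comparison that chose it. Its fitted log2 fold change was 2.80, and 0.83 without untreated replicate 2. Dkk2 had 129, 202 and 140 counts in untreated hearts (13.6, 16.4 and 14.8 CPM) and 62, 60 and 91 in control 9w (6.99, 7.38 and 9.07 CPM). Its libraries did not overlap, and its log2 fold change of 0.93 (SE 0.47) did not pass the test (adjusted p = 0.311). Wif1 did not overlap either, at 4.53 to 6.58 CPM in untreated hearts, with a log2 fold change of −0.91 (SE 0.54, adjusted p = 0.397). It passed at −1.32 (adjusted p = 0.0295, with a range from 0.0295 to 0.691 over the alternatives) without the 4 libraries highest in atrial or cartilage markers. These 2 members of 8 stand against 23% of all tested genes whose libraries did not overlap.

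The disease effect at week 9 (untreated against control 9w) minus that at week 5 (HFpEF against control 5w) was tested as an interaction chosen after seeing the data. By edgeR it called 0 of the 7 other members, against 12% of all tested genes, and 2 of the 7 had an unadjusted p under 0.05, against 35.3% of all tested genes; DESeq2 was not run on it. Sfrp5 differed most, with 0.08 at week 9 and 3.27 at week 5, a difference of −3.20 (SE 1.19) that did not pass (adjusted p = 0.070). Its week 9 value changed sign without untreated replicate 2 (−1.32) and without control 9w replicate 2 (−0.26). For Wif1 the difference was −1.72 (SE 0.76, adjusted p = 0.120). Untreated hearts were also set against HFpEF, the same model 4 weeks earlier. There 0 of the 7 other members were called by edgeR or DESeq2, against 0.194% of all genes by edgeR and 3.56% by DESeq2. An unadjusted p under 0.05 was found for 2 of the 7 in each tool (22.7% of all genes by edgeR, 24.9% by DESeq2). In edgeR those 2 were Sfrp4, at −2.88 (SE 1.34, adjusted p = 0.218) and from −4.67 without untreated replicate 2 to −2.34 without untreated replicate 1 (adjusted p from 0.0824 to 0.513), and Frzb, at −3.13 (SE 1.26, adjusted p = 0.170) and 0.16 without HFpEF replicate 1. Sfrp2, with no test, was −0.55, and it was −2.52 without untreated replicate 2, −0.14 and −0.04 without untreated replicate 1 and 3, and 0.02 without HFpEF replicate 1, so that its sign was not stable.

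EMPA + PFD against untreated is the comparison that chose Sfrp2, so its values are a description. Of 8 members 1 was called, Sfrp2, and 3.82% of all tested genes, and nothing is read from that count. The mean of Sfrp2 was 7.05 CPM with both drugs and 122 ± 157 CPM (SD, n = 3) without, a fitted log2 fold change of −4.11. Without untreated replicate 2 it was −2.14, and the member was then not called. It was not called either without any 1 of the 3 EMPA + PFD libraries, with the replicate block or with only the 2 groups compared. The untreated group without Eif2s3y counts is set here against a treated group with them. The libraries did not overlap for 3 of 8 members, Sfrp2, Dkk2 and Dkk3, against 37.4% of all tested genes. Dkk2 stood at 5.20, 6.10 and 7.94 CPM with both drugs (44, 51 and 76 counts), a log2 fold change of −1.22. Dkk3 stood at 217, 367 and 208 CPM with both drugs (1833, 3071 and 1992 counts) and at 126, 193 and 88.2 CPM in untreated hearts (1190, 2374 and 837 counts), a log2 fold change of 0.96. Endothelial markers had r = −0.74 (rho = −0.76) with Dkk3 over the 19 libraries, picked after all lists were seen. Their sum was 2170, 1830 and 1920 CPM with both drugs and 3040, 3540 and 3300 CPM in untreated hearts, and their part was not tested. Sfrp4 had 2, 3 and 6 counts with both drugs and 1, 116 and 21 in untreated hearts, so that its level overlapped and lay at or under 3 counts in 2 of the 3 treated libraries. Its fitted log2 fold change was −3.24, and −1.46 without untreated replicate 2.

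The single drugs were compared with untreated hearts on 2 libraries each. In EMPA 0 of the 7 other members were called by edgeR or DESeq2, against 0.0404% of all genes by edgeR and 0.412% by DESeq2. An unadjusted p under 0.05 was found for 2 of the 7 in edgeR and 3 in DESeq2 (8.63% and 9.42% of all genes). In PFD 0 of 7 were called by either tool, against 0.00807% of all genes by edgeR and 0.0323% by DESeq2. There 0 of the 7 had an unadjusted p under 0.05 in edgeR and 1 in DESeq2 (5.21% and 5.99% of all genes). Sfrp2, with no test, was −3.05 in EMPA and −3.02 in PFD on the log2 scale, and −1.08 and −1.05 without untreated replicate 2. Dkk2 was −1.50 in EMPA (SE 0.56, adjusted p = 0.443), where it had 41 and 42 counts (5.46 and 5.10 CPM), and −1.06 in PFD (SE 0.54, adjusted p = 0.786), where it had 25 and 112 counts (2.74 and 11.5 CPM). The PFD value was −0.38 without PFD replicate 1 and −2.45 without PFD replicate 2, with adjusted p from 0.476 to 1 over the alternatives. Wif1 had 32 and 300 counts in EMPA (4.26 and 36.4 CPM) and a log2 fold change of 1.95 (SE 0.58, adjusted p = 0.313). The high library was EMPA replicate 2, and without it the value was −0.31, while without EMPA replicate 1 it was 2.79. Valve, tendon and cartilage markers summed to 1230 CPM there. Bone markers (878 CPM, 6 of 6 in the files, Alpl the most abundant) and smooth muscle and pericyte markers (3890 CPM, 10 of 10, Abcc9) were highest in that library. Over the 19 libraries the Pearson r of Wif1 with these lists was 0.67, 0.65 and 0.70 (rho = 0.31, 0.29 and 0.21). Their part in the Wif1 level was not tested.

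Against control 9w the single drugs give fold changes of Sfrp2 on libraries that did not choose it. Their tests use a spread estimated over all 7 groups, among them the untreated and EMPA + PFD libraries that chose it. All drug groups had been given L-NAME and the high-fat diet, and control 9w neither, so model and drug cannot be told apart. Both PFD libraries lacked Eif2s3y counts and all 3 of control 9w had them. For PFD, drug and Y-linked signal therefore cannot be told apart either. In EMPA Sfrp2 was −0.25 (SE 1.10, adjusted p = 0.942) and in PFD −0.22 (SE 1.09, adjusted p = 0.926) on the log2 scale. With 1 library left out the EMPA value ran from −1.68 to 0.45 and the PFD value from −0.61 to 0.41. Leaving out control 9w replicate 3 turned these to 0.38 and 0.41, leaving out EMPA replicate 1 turned the EMPA value to 0.45, and the adjusted p ran from 0.804 to 0.994 over all alternatives of the PFD value and from 0.807 to 0.985 for EMPA. In both comparisons 0 of 8 members were called by edgeR or DESeq2 and 0 had an unadjusted p under 0.05 in either tool. The share of all genes called was 0.46% in EMPA and 0.783% in PFD by edgeR, and 1.64% and 3.53% by DESeq2. Of all genes 14.3% and 24.3% had an unadjusted p under 0.05 by edgeR in these comparisons, and 15.5% and 25.7% by DESeq2. These SEs exceed a log2 fold change of 1, so a change of that size in Sfrp2 was not detectable here. In EMPA + PFD, 0 of the 7 other members were called by edgeR and 1 by DESeq2, with 12.1% of all genes called by edgeR and 13.1% by DESeq2. An unadjusted p under 0.05 was found for 1 of the 7 by edgeR and 2 by DESeq2, against 44.4% and 45.6% of all genes. Wif1 was closest, at 2.96, 3.47 and 5.22 CPM (25, 29 and 50 counts) and a log2 fold change of −1.34 (SE 0.55, adjusted p = 0.0733). It was called by DESeq2 (adjusted p = 0.0454) and without HFpEF replicate 1 and EMPA replicate 2 (adjusted p = 0.00487), with adjusted p from 0.00177 to 0.188 over all alternatives. Sfrp2, with no test, was −1.31 in this comparison, and −0.68 without control 9w replicate 3.

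**Figure D2:**
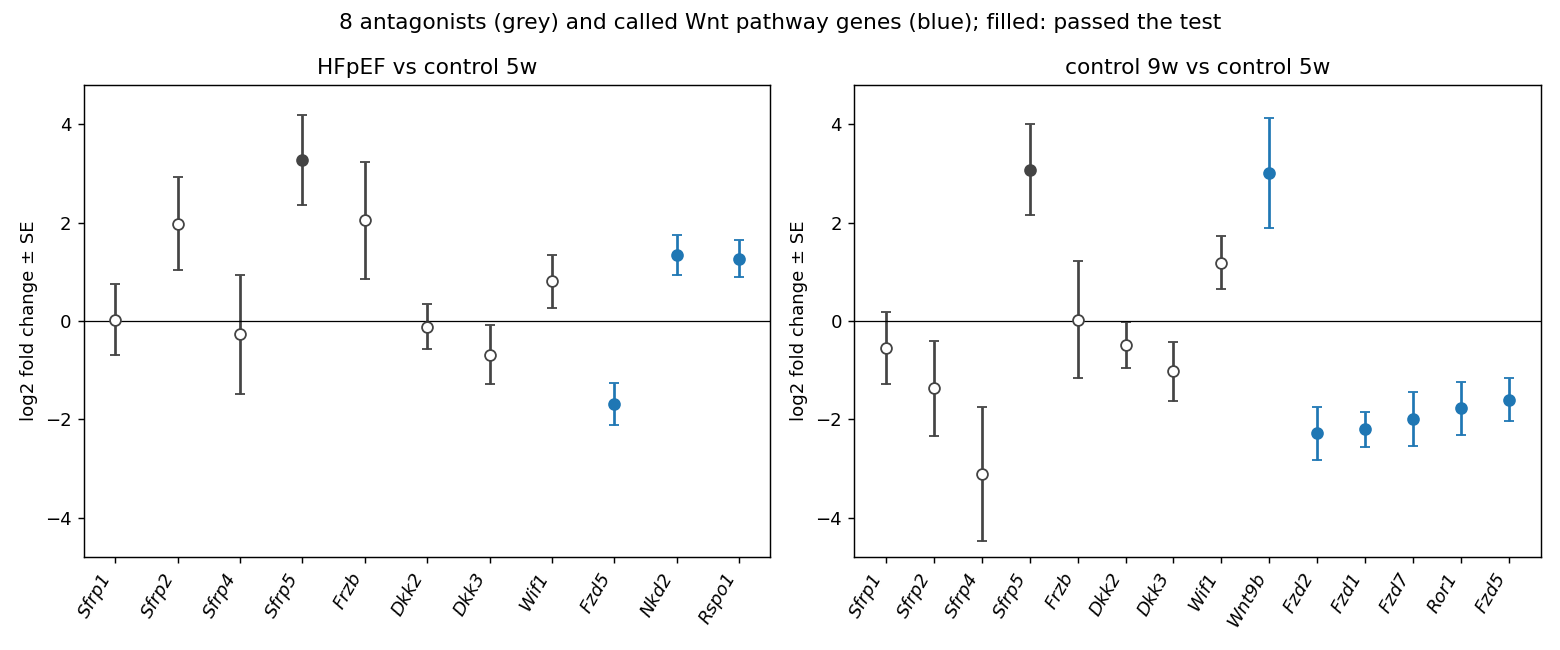
Log2 fold change ± SE of the 8 antagonists (grey) and of called Wnt pathway genes, at most 6 per comparison (blue), for HFpEF against control 5w (left) and control 9w against control 5w (right), n = 3 in each group. Filled points passed the test, and Wnt3, with almost no counts in HFpEF, is not drawn. Of the antagonists Sfrp5 passed in both, at 3.27 and 3.08, and both comparisons share the control 5w libraries.

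Several members varied widely within groups. Sfrp1, a broadly expressed Frizzled-related protein, ran from 57 counts in control 9w replicate 2 to 892 in HFpEF replicate 1 (6.24 to 64.0 CPM, the lowest being HFpEF replicate 2). Its group means lay between 14.7 CPM in PFD and 33.5 CPM in HFpEF, and the HFpEF libraries alone differed by 10.3-fold. Dkk3 ran from 437 to 6642 counts (53.7 to 515 CPM) and Frzb from 20 to 1603 counts (2.64 to 115 CPM). Sfrp4 had 3 or fewer counts in 3 libraries and 740 at its highest, and its 3 control 5w libraries differed by 122-fold. Dkk2 ran from 25 to 204 counts, and Wif1 from 25 to 300. Counts of different genes were not scaled by transcript length, so no order of level between members is given.

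Levels of some members moved together over the 19 libraries, given as Pearson r of log2 CPM without a test, with libraries that share groups and depth. The highest were Sfrp1 with Dkk3 (0.83), Sfrp1 with Sfrp4 (0.79) and Sfrp2 with Sfrp4 (0.74). Sfrp5 had no r above 0.40 with any other member. Sfrp4 followed the activated fibroblast list most closely (r = 0.97, rho = 0.97), all 11 genes of which were in the files with Postn the most abundant and none at 0. That list summed to 336, 7650 and 6570 CPM in control 5w, to 5470, 798 and 2790 CPM in HFpEF, to 604, 374 and 1090 CPM in control 9w and to 314, 1520 and 684 CPM in untreated hearts. It summed to 406 and 2680 CPM in EMPA, to 553 and 300 CPM in PFD and to 271, 353 and 348 CPM in EMPA + PFD. For Sfrp2 the r was 0.73 with activated fibroblast markers (rho = 0.70), 0.74 with fibroblast markers (rho = 0.81) and −0.81 with cardiomyocyte markers (rho = −0.76). It was as high with lymphocyte markers (r = 0.75, rho = 0.67; 7 of 8 in the files, Cd4 the most abundant, sums of 20.8 to 184 CPM). With macrophage markers it was 0.73 (rho = 0.60), with 8 of 8 in the files, Lyz2 the most abundant and sums of 281 to 3140 CPM, and both lists were highest in HFpEF replicate 1. With valve, tendon and cartilage markers the r of Sfrp2 was 0.57 and the rho 0.86. Frzb had r = 0.83 (rho = 0.60) with valve, tendon and cartilage markers, and Sfrp1 r = 0.80 (rho = 0.73) with activated fibroblast markers and r = 0.76 (rho = 0.84) with atrial markers. These pairs of member and marker list were picked after all were seen. What part these cell types had in the levels was not tested.

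**Figure D3:**
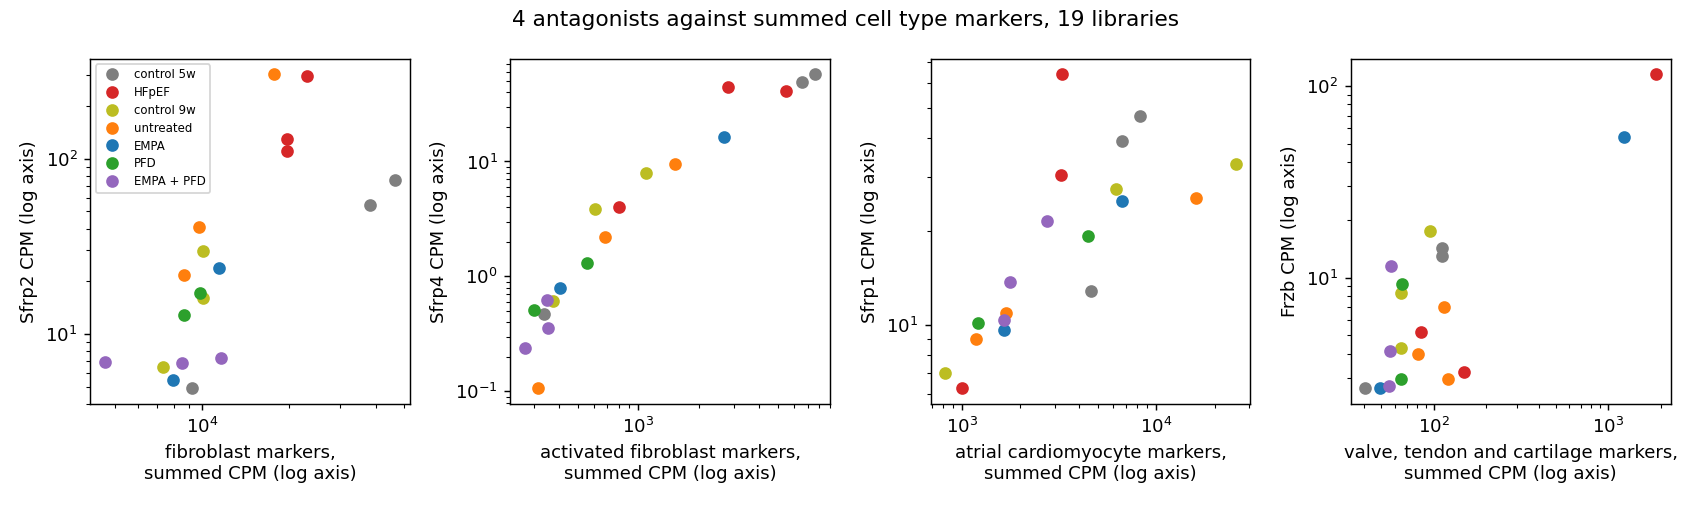
CPM of Sfrp2, Sfrp4, Sfrp1 and Frzb against the summed CPM of fibroblast, activated fibroblast, atrial cardiomyocyte, and valve, tendon and cartilage markers, on log axes. Each point is 1 of 19 libraries, coloured by group. Sfrp4 tracks activated fibroblast markers over all groups, and Frzb is highest in HFpEF replicate 1 and EMPA replicate 2, where the cartilage list summed to 1880 and 1230 CPM.

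Of all tested genes, Sfrp2 was most like Bnc2, Myd88 and PCOLCE2 (r = 0.91 each). Bnc2 encodes a zinc finger protein and PCOLCE2 an enhancer of procollagen processing, and without untreated replicate 2 PCOLCE2 fell to 0.88, rank 23. Sfrp4 was most like Ltbp2, Phlda3 and Fn1 (0.96 each), of which Ltbp2 and Fn1 are on the activated fibroblast list. Sfrp1 was most like Xkr5 (0.91), Casc4 (0.90) and Tmem119 (0.89). Sfrp5 was most like Cytl1 (0.93), the sodium channel gene Scn7a (0.92) and Rasgef1c (0.90), with a rho of 0.80 for Scn7a and 0.71 for Rasgef1c. Frzb was most like Hbegf (0.85), Itga10 (0.84) and Chad (0.83), the last 2 being a collagen-binding integrin chain and a cartilage matrix protein, but the rho was 0.61 for Itga10 and 0.58 for Chad. Dkk2 was most like Rab43 (0.73), Cmip (0.73) and Gmppb (0.72), which without untreated replicate 2 were at ranks 5, 9 and 10. Without that library Chad was at rank 4 for Frzb and Fam49a at rank 5 for Dkk3. Dkk3 was most like Wls (0.92), the carrier that Wnt ligands need for secretion, then Tceal8 (0.88) and Fam49a (0.88). Wif1 was most like the bone gene Bglap (0.90), Flna (0.84) and the hedgehog ligand Ihh (0.83), with a rho of 0.74 for Bglap and 0.71 for Ihh. Ihh had at most 16 counts in any library and was highest in EMPA replicate 2 (1.46 CPM) and HFpEF replicate 1 (1.15 CPM). Bglap stood at 28.8 CPM in EMPA replicate 2 and at no more than 1.44 CPM in any other library, and the likeness without that library was not computed.

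Other genes of the pathway were taken from lists of 89 symbols, 80 of them in the files and 60 tested. In HFpEF against control 5w 4 of 60 were called (6.67%, with 8.69% of all genes). The count was 0 without control 5w replicate 1 (with 5.9% of all genes) and 2 without control 5w replicate 3 (3.33%, with 6.47%). It was 3 to 5 without any other library (5.08% to 8.33%, with 6.71% to 9%). With only the 2 groups compared it was 1 (1.79%, with 3.87%), and without the limit on fold change it was 16 (26.7%, with 20% of all genes). The receptor gene Fzd5 fell, from 4.90, 3.26 and 3.66 CPM in control 5w to 1.29, 0.825 and 1.52 CPM in HFpEF (log2 fold change −1.68, SE 0.43, adjusted p = 0.0168). Rspo1, a secreted enhancer of Wnt signalling, rose from 3.58, 11.5 and 8.67 CPM to 27.3, 14.3 and 15.6 CPM (1.27, SE 0.38, adjusted p = 0.0309). Nkd2, an inhibitor acting on Dishevelled inside the cell, rose from 19.8, 20.1 and 19.6 CPM to 92.9, 26.3 and 30.6 CPM (1.34, SE 0.41, adjusted p = 0.0350). The calls on Nkd2 and Rspo1 were lost without HFpEF replicate 1 (0.52 and 0.91, adjusted p = 0.259 and 0.128), and Nkd2 was also lost without control 5w replicate 1, 2 or 3 (adjusted p = 0.0851, 0.0784 and 0.0866). Rspo1 was lost without control 5w replicate 1 or 3 (adjusted p = 0.0875 and 0.0659), and Fzd5 without control 5w replicate 1 or HFpEF replicate 2 (adjusted p = 0.0528 and 0.0603). Over all alternatives the adjusted p reached 0.265 for Nkd2, 0.298 for Rspo1 and 0.0879 for Fzd5. Marker lists also differed without overlap here, among them cardiomyocyte markers at 89900, 37000 and 41600 CPM in control 5w and 11500, 22100 and 34300 CPM in HFpEF, and the skeletal muscle and epicardium lists given with Sfrp5, and their part in these genes was not tested. The ligand gene Wnt3 was called lower on 9, 1 and 5 counts against 0, 1 and 0, too few for a fold change.

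In control 9w against control 5w 13 of 60 were called (21.7%, with 14.7% of all genes), and 8 of these were among the 16 tested receptors and co-receptors. The count was 8 without control 5w replicate 2 (13.3%, with 10.8% of all genes) and 9 to 13 without any other library (15.3% to 22%, with 9.76% to 16.4%). It was 25 without the limit on fold change (41.7%, with 34.5% of all genes). Of the 8 receptors 7 fell and 1 rose, Fzd4, named after its values were seen, from 152, 146 and 142 CPM to 370, 402 and 275 CPM. The median log2 fold change of the receptors was −0.97, and that of all genes −0.04. Fibroblast markers were lower in control 9w than in control 5w replicates 2 and 3. Their sum was 9260, 46700 and 38300 CPM in control 5w and 10100, 7330 and 10100 CPM in control 9w. That of activated fibroblast markers was 336, 7650 and 6570 CPM and 604, 374 and 1090 CPM. In control 5w replicate 1 neither sum lay above all of control 9w. Endothelial markers moved the other way, as Fzd4 did, from 1850, 1510 and 1740 CPM to 3910, 3990 and 3440 CPM, with 8 of 8 in the files, Vwf the most abundant and none at 0. Macrophage markers stood at 690, 2190 and 1770 CPM in control 5w and at 377, 294 and 446 CPM in control 9w. The part of these lists in the receptor levels was not tested. Fzd1 fell from 89.0, 137 and 137 CPM to 28.0, 16.2 and 34.4 CPM (−2.20, SE 0.36, adjusted p = 0.000707), and its adjusted p stayed at or under 0.00536 over all alternatives. Fzd2 fell by 2.28 (SE 0.54, adjusted p = 0.00565), from 8.48, 38.9 and 36.0 CPM to 6.20, 3.32 and 7.58 CPM, with adjusted p of at most 0.0328. Fzd7 (−1.99), the receptor tyrosine kinase Ror1 (−1.77) and Fzd5 (−1.60) also fell, with adjusted p of 0.0132, 0.0215 and 0.0127 that reached 0.0591, 0.0638 and 0.0605 over the alternatives. Fzd7 was lost without control 5w replicate 2 or control 9w replicate 2 (−1.67 and −1.83), Ror1 without control 5w replicate 2 or 3 or control 9w replicate 2 (−1.63, −1.70 and −1.30), and Fzd5 without control 9w replicate 1 or 2 (−1.40 and −1.28). The ligand gene Wnt9b was called at 3.01 (SE 1.11, adjusted p = 0.0473), but on 1 library: control 9w replicate 3 had 75.3 CPM and every other library at most 8.11 CPM, and without it the value was −0.69.

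At week 9 the same lists gave 1 of 60 called in untreated against control 9w (1.67%, with 0.912% of all genes). It was Kremen1, a receptor for Dickkopf proteins, which rose from 7.33, 8.12 and 8.97 CPM to 17.8, 20.2 and 14.0 CPM (1.09, SE 0.22, adjusted p = 0.0247). Erythroid markers, 5 of 6 in the files with Hbb the most abundant and Hba1 at 0 in every library but HFpEF replicate 2 and control 9w replicate 3, summed to 1490, 1790 and 1150 CPM in control 9w and to 227, 181 and 297 CPM in untreated hearts, and their part was not tested. The call on Kremen1 was lost without control 9w replicate 1 or 2 (1.02 and 1.09, adjusted p = 0.115 and 0.109) or untreated replicate 1 or 2 (1.07 and 0.97, adjusted p = 0.109 and 0.0266). It was also lost with only the 2 groups compared (1.12, adjusted p = 0.0573). In EMPA + PFD against untreated 1 of 60 was called (1.67%, with 3.82% of all genes), the cyclin gene Ccnd1, a Wnt target gene among other roles, at 84.4, 48.8 and 99.9 CPM with both drugs and 121, 164 and 187 CPM without. The count ran from 0 to 6 over the alternatives, and was 6 without the limit on fold change (10%, with 12.1% of all genes). It was 0 without untreated replicate 2 (with 0.673% of all genes), untreated replicate 3 (1.7%) or EMPA + PFD replicate 2 (0.476%). It was also 0 with another normalisation (relative log expression, with 3.79%) or only the 2 groups compared (0.0435%). Without untreated replicate 1 it was 2 (3.33%, with 7.35%). In the comparisons of untreated with HFpEF, of EMPA and PFD with untreated, and of EMPA and PFD with control 9w, edgeR called 0 of 60 in each, while 13, 4, 0, 9 and 19 had an unadjusted p under 0.05, and DESeq2 called 1, 0, 0, 1 and 1. In untreated against HFpEF the edgeR count was 4 without untreated replicate 2 (6.67%, with 7.56% of all genes) and 1 without HFpEF replicate 2 (1.67%, with 2.1%). In PFD against control 9w it was 1 without control 9w replicate 3 (1.69%, with 0.922%). Of all tested genes 22.7%, 8.63%, 5.21%, 14.3% and 24.3% had an unadjusted p under 0.05 in these comparisons. The shares called were 0.194%, 0.0404%, 0.00807%, 0.46% and 0.783% by edgeR and 3.56%, 0.412%, 0.0323%, 1.64% and 3.53% by DESeq2. In EMPA + PFD against control 9w 7 of 60 were called (11.7%, with 12.1% of all genes), 5 higher and 2 lower. The count was 4 without EMPA + PFD replicate 2 (6.67%, with 7.86% of all genes) or replicate 3 (6.67%, with 10.6%). It was 6 to 9 without any other library (10% to 15.3%, with 8.28% to 12.6%) and 21 without the limit on fold change (35%, with 33.8% of all genes). Marker lists that differed without overlap here included cardiomyocyte markers, at 36800, 42200 and 40500 CPM in control 9w and 70500, 104000 and 85900 CPM in EMPA + PFD. Endothelial markers stood at 3910, 3990 and 3440 CPM and at 2170, 1830 and 1920 CPM in EMPA + PFD, below the 3040, 3540 and 3300 CPM of untreated hearts too. Erythroid markers in EMPA + PFD summed to 141, 468 and 207 CPM, below control 9w. The part of these lists in the genes called was not tested. Higher were Rnf43, a ligase that removes Frizzled receptors (1.80, SE 0.36, adjusted p = 0.00266), Fzd5 (1.29, SE 0.45, adjusted p = 0.0369), Fzd1 (1.16, SE 0.36, adjusted p = 0.0226) and Kremen1 (1.15, SE 0.22, adjusted p = 0.00200). Lower were Ccnd1 (−1.59, SE 0.26, adjusted p = 0.000973) and Cd44 (−1.38, SE 0.46, adjusted p = 0.0329). EMPA + PFD rats also had L-NAME and the high-fat diet, and control 9w neither, so model and drugs cannot be told apart. Untreated libraries too lay above all of control 9w for Rnf43 (2.11 to 2.53 against 0.698 to 1.35 CPM), Fzd1 (43.8 to 63.6 against 16.2 to 34.4 CPM) and Kremen1. For Ccnd1 they lay below (121 to 187 against 225 to 242 CPM), and for Fzd5 and Cd44 they overlapped. Over the alternatives the adjusted p of Rnf43, Kremen1 and Ccnd1 was at most 0.0144, 0.0123 and 0.00609. The calls on Fzd5 and Fzd1 were lost without control 9w replicate 1 (1.10 and 1.20), control 9w replicate 2 (0.98 and 0.91) or EMPA + PFD replicate 2 (1.16 and 1.13), and that on Fzd5 also without EMPA + PFD replicate 3 (1.32), with adjusted p up to 0.137 and 0.0973. That on Cd44 was lost without control 9w replicate 1 or 3 (−1.47 and −1.09) or any EMPA + PFD library (−1.51, −1.18 and −1.43), with adjusted p up to 0.126.

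RefSeq promoter sequences (GRCr8) were at hand for 4 of the 8 members, Sfrp2, Sfrp5, Frzb and Wif1, and those of the 2 members with the main results are shown. Each run is the 250 bases before the gene start, 5′ to 3′ on the strand of the gene. Capitals mark matches, on either strand, to CTTTG, the core of the site that TCF/LEF factors recognise, to CCAAT, to the GC box GGGCGG or to TATAAA. The Sfrp2 sequence lies at chr2:171387286-171387535, plus strand, and holds none of the 4 motifs. The Sfrp5 sequence lies at chr1:250960513-250960762, minus strand, and holds CTTTG once, on the opposite strand and beginning 110 bases before the gene start.
Sfrp2: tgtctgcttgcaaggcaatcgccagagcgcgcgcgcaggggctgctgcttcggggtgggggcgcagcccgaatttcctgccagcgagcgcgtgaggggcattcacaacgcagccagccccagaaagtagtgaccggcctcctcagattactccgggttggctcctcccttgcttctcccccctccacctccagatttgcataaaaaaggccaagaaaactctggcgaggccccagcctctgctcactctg
Sfrp5: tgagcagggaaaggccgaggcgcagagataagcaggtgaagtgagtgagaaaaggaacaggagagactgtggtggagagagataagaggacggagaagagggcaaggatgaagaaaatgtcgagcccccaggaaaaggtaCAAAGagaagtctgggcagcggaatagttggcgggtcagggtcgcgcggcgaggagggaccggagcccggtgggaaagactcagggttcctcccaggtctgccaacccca
Frzb held CTTTG and CCAAT, and Wif1 held GGGCGG. Among all 33469 promoters, 48.2% held CTTTG in this window, 34% CCAAT, 30.5% GGGCGG and 12.9% TATAAA. No motif of the 4 overlapped another in these sequences. GC content was 62.4% for Sfrp2 and 58% for Sfrp5, with a median of 51.2% over all promoters. A match describes letters in the sequence and no measured binding.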

How the data were processed

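RNA sequencing of 19 rat heart libraries in 7 groups gave raw counts per gene symbol, which the authors deposited; the submitters' processing notes name Trim Galore, FastQC, HISAT2, HTSeq, DESeq2 and the build rn6, without versions. Members and lists were chosen with earlier results of these data known. In R 4.3.3, edgeR 4.0.16 (limma 3.58.1) filtered genes with filterByExpr, normalised by TMM and fitted 1 quasi-likelihood model of 7 groups, with Benjamini-Hochberg adjustment over 12388 genes. Calls needed an adjusted p under 0.05 and a log2 fold change of at least 1 in size. The common biological coefficient of variation was 0.257. Alternatives were DESeq2 1.42.0, other normalisations and filters, only the 2 groups compared, a replicate block, and libraries left out. Log2 CPM for correlations used a prior count of 2. Named were all 8 members, at most 6 called Wnt pathway genes per comparison by size of fold change, the 3 genes with the highest Pearson r per member, and the most abundant gene of each marker list. Not all marker lists are reported here, among them 1 with a higher r to Sfrp5 than those given. Depth limits low counts, and floors cover counting error only.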

Additional observations from a re-analysis of the deposited data

How the results depend on the processing

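The log2 fold changes given for members kept direction and call in 363 alternative values, became called in 13 and were no longer called in 10, and 19 with a test changed sign; of values without a test 18 moved by more than the spread between replicates. These pairs were chosen partly to keep sign changes few: over all 80 pairs of member and comparison 101 of 1198 values (8.43%) changed sign, in 31 pairs. For Wnt pathway genes 211 kept direction and call, 56 lost the call and 3 changed sign. Counts of called Wnt pathway genes moved by over 1.5 times in 38 and did not in 122. The cause of these changes was not tested. A group left with 1 library was assumed to vary like the others. Settings without the libraries high in atrial or cartilage markers were chosen after seeing the data.

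With only the 2 groups compared, members called were 0 in HFpEF against control 5w, 2 in control 9w against control 5w, 0 in EMPA + PFD against untreated and 1 in EMPA + PFD against control 9w, where DESeq2 also called 1. The shares of all genes called were 3.87%, 14.4%, 0.0435% and 14.1% in that order, and 13.1% by DESeq2 in the last. The replicate block gave 0 in EMPA + PFD against untreated (with 3.07% of all genes) and moved the member count in no other comparison. Without the libraries with no Y-linked counts Frzb in HFpEF against control 5w was −0.87. Leaving out 1 library gave 0 to 1 in HFpEF against control 5w (with 5.9% to 9% of all genes). It gave 0 to 2 in control 9w against control 5w (with 9.76% to 16.4%) and 0 to 1 in EMPA + PFD against untreated (with 0.476% to 7.35%). Same-numbered libraries did not deviate together: over 52 pairs the median r was −0.07 (−0.53 to 0.49), and over 102 other pairs 0.04 (−0.51 to 0.54).

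Without untreated replicate 2 and control 9w replicate 3, the 2 highest in atrial markers, members called were 2 in control 9w against control 5w (with 16.6% of all genes) and 0 in EMPA + PFD against untreated (with 0.667%). Wnt9b in control 9w against control 5w was then −0.69, Sfrp5 in untreated against control 9w −1.28, and Sfrp2 against control 9w 0.38 in EMPA and 0.41 in PFD. Without HFpEF replicate 1 and EMPA replicate 2, the 2 highest in cartilage markers, members called were 0 in HFpEF against control 5w (with 6.26% of all genes), 2 in control 9w against control 5w (with 15.2%) and 1 in EMPA + PFD against control 9w (with 12.3%). Frzb was then −1.24 in HFpEF against control 5w and 0.16 in untreated against HFpEF, and Wif1 in EMPA against untreated −0.31. Without all 4, members called were 0 in HFpEF against control 5w, 3 in control 9w against control 5w, 0 in EMPA + PFD against untreated, and 1 (Wif1) in each of untreated, PFD and EMPA + PFD against control 9w. The shares of all genes called were then 8.43%, 17.6%, 0.741%, 3.67%, 4.61% and 14.4% in that order. Without all 4, Frzb in HFpEF against control 5w was −1.20, Wnt9b −0.67, Sfrp5 in untreated against control 9w −1.30, Wif1 in EMPA against untreated −0.11 and Sfrp2 in PFD against control 9w 0.38.

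With 1 library left out, log2 fold changes that changed sign ran from −1.24 to 2.59 for Frzb in HFpEF against control 5w, from −3.67 to 0.16 for Frzb in untreated against HFpEF and from −0.69 to 3.58 for Wnt9b in control 9w against control 5w. Sfrp5 in untreated against control 9w ran from −1.32 to 0.50, Wif1 in EMPA against untreated from −0.31 to 2.79, and Sfrp2 against control 9w from −1.68 to 0.45 in EMPA and from −0.61 to 0.41 in PFD. Sfrp2 in untreated against HFpEF, with no test, ran from −2.52 to 0.02.

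Counts of all genes called also moved by over 1.5 times. DESeq2 called 298 in untreated against control 9w (edgeR 113), 441 in untreated against HFpEF (24), 715 in EMPA + PFD against untreated (473), 51 in EMPA against untreated (5), 4 in PFD against untreated (1), 203 in EMPA against control 9w (57) and 437 in PFD against control 9w (97). With only the 2 groups compared, edgeR called 460 in HFpEF against control 5w (1076), 5 in EMPA + PFD against untreated, 1 in untreated against HFpEF and 570 in PFD against control 9w. The replicate block gave 62 in untreated against control 9w, 8 in untreated against HFpEF, 31 in EMPA against control 9w and 7 in PFD against control 9w. Without untreated replicate 2, EMPA + PFD against untreated had 83, untreated against control 9w 413 and untreated against HFpEF 933. PFD against control 9w had 5 and 4 without control 9w replicate 1 and 2 and 2 without either PFD library. Untreated against control 9w had 7 without control 9w replicate 2, and EMPA + PFD against untreated had 59 without EMPA + PFD replicate 2 and 910 without untreated replicate 1. Other settings, not listed, did so too.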
